A study of Mus musculus with 15 samples.

Results

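The genes described here encode 9 proteins of the complement system: the proteases C1ra, C1s, C2 and Cfb, the central components C3 and C4b, the stabilising factor Cfp, and the inhibitors Serping1 and Cd55. They were chosen by name, as rows of a table of read counts per gene that held 18804 genes. All 9 were found and all 9 passed the filter on low counts, which left 14293 genes for testing.

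Complement is a set of plasma and membrane proteins that tags cells and microbes for removal. In the classical and lectin routes, proteases cleave C4 and C2 to form an enzyme that cleaves C3. In the alternative route, C3 itself combines with factor B, which the protease factor D cleaves, and each cleaved C3 feeds back into more cleavage. Liver makes most of the circulating protein, and adipocytes are known as a source of factor D, also called adipsin, and of C3 and factor B.

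The study asked how white adipocytes in culture adapt to cool temperature. Mesenchymal stem cells (MSCs) from C57BL/6J mice, isolated from the ears by the methods, were differentiated to white adipocytes with methylisobutylxanthine, dexamethasone, insulin and troglitazone, and every group was harvested on day 16 of differentiation. The day 0 group stayed at 37°C, cells of the day 1 group went to 31°C on day 15, and those of the day 12 group on day 4, so that most of its adipocyte maturation took place at 31°C. RNA of 5 libraries per group was sequenced. Whether libraries were made from different mice or different dishes is not in the labels, so p-values measure the spread between libraries, which may be technical.

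Total counts ranged from 64648178 to 133270973 per library, and levels are given as counts per mega-count (CPM), scaled between libraries with the trimmed mean of M-values (TMM). A gene without reads may still have been present at under 0.0238 to 0.0428 CPM by library, for counting error only. A gene was called higher or lower at a Benjamini-Hochberg adjusted p under 0.05 in the edgeR quasi-likelihood test together with a fold change over 1.5. Of 8 adipocyte markers all were tested, and their summed level was 4210 to 4820 CPM at day 0, 5170 to 5730 at day 1 and 4440 to 4990 at day 12. The sum holds opposite log2 fold changes at day 12. Adipoq (-1.24, from 1090 to 464 CPM), Cidec (-1.59) and Pparg (-0.59) were called lower. Fabp4 (0.97, from 828 to 1620 CPM) and Retn (1.75, under 1 CPM) were called higher. Macrophage markers, which would mark another source of complement, summed to 26.6 to 33.8, 42.4 to 48.6 and 30.1 to 34.5 CPM. Most of that sum was Cd14 (means of 20.7, 33.9 and 23.8 CPM) and Cd68 (7.5, 10.3 and 5.14 CPM). Ptprc, which every leukocyte carries, averaged 0.0288, 0.0255 and 0.0163 CPM, near the limit that a count of 0 allows. The libraries are bulk RNA, in which fewer cells of a type and less RNA per cell cannot be told apart.

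By the GRCm38 annotation (GENCODE M21), which has the coordinates of mm10, 4 of the 9 genes lie on chromosome 17. C3 spans 57203970 to 57228136, while C4b (34728380 to 34743882), Cfb (34856374 to 34862518) and C2 (34862604 to 34898265) lie together in the major histocompatibility region on the minus strand. C1ra (124512405 to 124523443, plus strand) and C1s (listed as C1s1, 124530345 to 124542359, minus strand) are neighbours on chromosome 6. Serping1 lies on chromosome 2 (84765387 to 84775444), Cd55 on chromosome 1 (130439027 to 130462744) and Cfp on chromosome X (20925454 to 20931555), each on the minus strand. Several of these genes have near-identical relatives. Among stretches of 50 bases, 50.8% of those in C1ra, 36.7% in C1s, 35.2% in C4b and 11.2% in Cd55 also occur in another gene, mainly C1rb, C1s2, C4a and Cd55b, so their counts could be split or shared. For Cfb the share was 74.2% and for C2 54.4%, nearly all from Gm20547, a transcript that runs through both genes and was not analysed here. C3, Cfp and Serping1 shared none.

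Promoter sequences of RefSeq (GRCm38.p6) were available for 5 of the 9 genes, C1ra, C1s, C3, Cfp and Cd55. The 250 bases before the start of 3 of them are shown, C3 and C1s because most of their fall came between day 1 and day 12, and Cd55 because it was already lower at day 1. Capitals mark matches to the C/EBP motif TTGCNNAA, read on either strand, the site type of a family of factors that drives many adipocyte and acute-phase genes.
C3: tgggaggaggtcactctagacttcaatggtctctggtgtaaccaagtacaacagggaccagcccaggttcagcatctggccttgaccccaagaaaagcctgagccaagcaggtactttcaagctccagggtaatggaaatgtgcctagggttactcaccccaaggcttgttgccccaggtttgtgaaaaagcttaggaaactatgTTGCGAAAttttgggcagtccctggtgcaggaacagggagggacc
C1s: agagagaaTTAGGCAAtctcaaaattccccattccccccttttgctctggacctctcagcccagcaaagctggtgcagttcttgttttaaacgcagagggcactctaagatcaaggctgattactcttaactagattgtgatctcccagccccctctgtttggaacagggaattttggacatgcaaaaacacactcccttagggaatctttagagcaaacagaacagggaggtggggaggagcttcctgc
Cd55: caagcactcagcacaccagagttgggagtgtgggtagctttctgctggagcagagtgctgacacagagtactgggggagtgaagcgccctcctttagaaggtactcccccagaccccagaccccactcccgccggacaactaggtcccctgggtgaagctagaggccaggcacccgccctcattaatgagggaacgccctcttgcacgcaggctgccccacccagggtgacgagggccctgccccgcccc
These stretches lie on the minus strand at chr17:57228137-57228386 (C3), chr6:124542360-124542609 (C1s) and chr1:130462745-130462994 (Cd55). With 50 bases after the start included, C3 held the C/EBP match TTGCGAAA at position -45, and C1s held TTAGGCAA, the reverse complement form, at -242 from the more upstream of its 2 starts. A C/EBP match was found in 10.8% of all 32851 promoter windows of this length. The GAS motif TTCNNNGAA, the gamma-activated site of interferon signalling, was present in 8.3% of windows and among these 5 members in C1ra alone, where TTCCCTGAA began at position 33, next to the C/EBP match TTATGCAA at position 17. Neither the interferon response element (ISRE), present in 3.44% of windows, nor the NF-kB motif, present in 4.51%, occurred in the windows of the 5 members. Both strands were searched and overlapping motifs were kept. The windows of Cfp and Cd55 held none of the 4 motifs. A match is a description of letters and not of a bound site.

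Complement transcripts were a sizeable part of the RNA of the control cells and fell with time at 31°C. The 9 genes together took 2.51 to 2.8% of all counts at day 0, 2.33 to 2.39% at day 1 and 1.01 to 1.04% at day 12. At day 1, 2 members were called lower, Cfp and Cd55, none was called higher and 7 were not called, while 13.4% of all tested genes were called lower and 7.71% higher. At day 12 against day 0, 8 members were called lower and 1, Cfb, was not, against 16.2% of all tested genes called lower and 13% higher. Between day 1 and day 12, 7 were called lower and 2, Cfb and Cfp, were not, against 8.53% of all tested genes called lower and 10.6% higher. The day 0 libraries serve both of the comparisons made with them. The median log2 fold change of the members was -0.25 at day 1 and -1.47 at day 12, beside medians of -0.009 and 0.012 over all tested genes. With libraries scaled to total counts instead of TMM, the share of called genes that were lower at day 12 was 35.9% instead of 55.6% over all genes, and 6 members were called lower instead of 8.

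**Figure D1:**
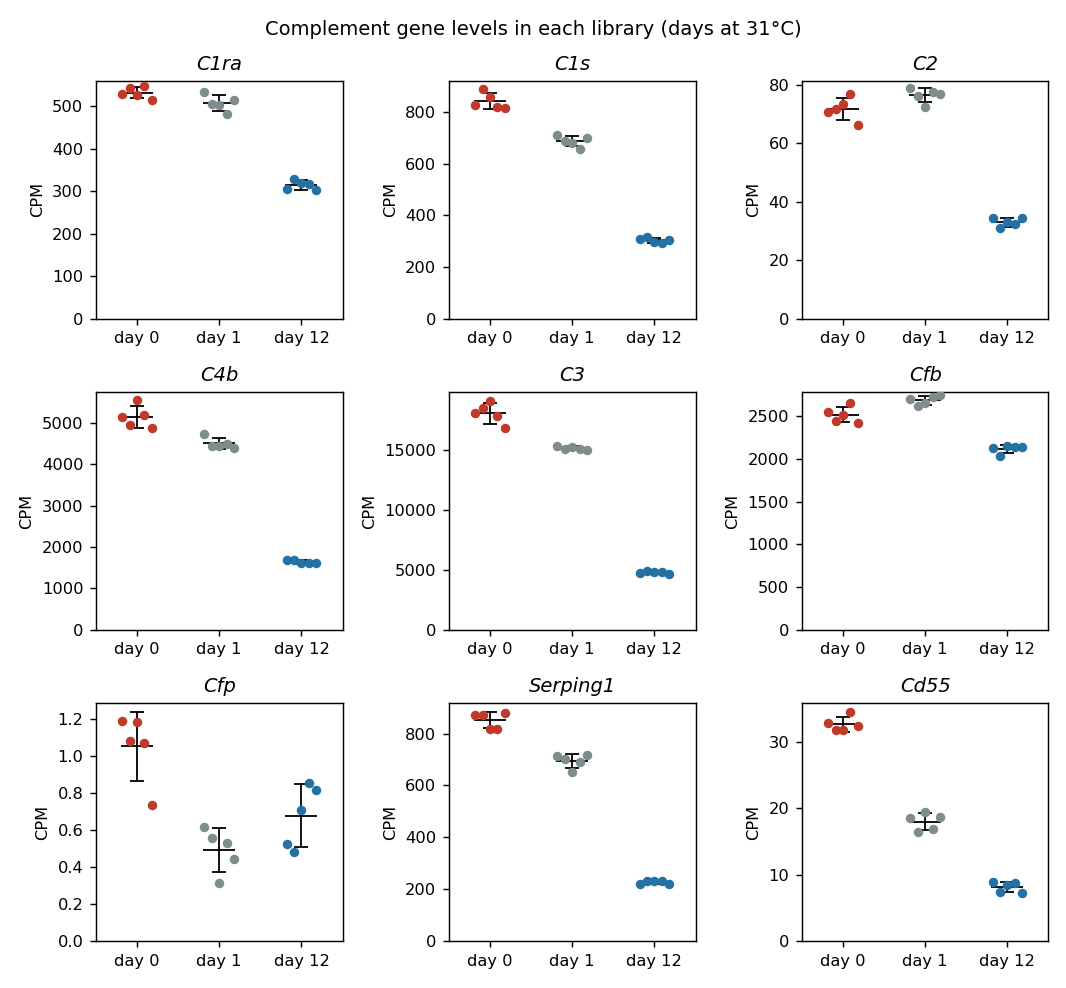
Level of each complement gene in CPM (vertical axes, linear from 0) in the 5 libraries of each group (points) by days at 31°C, with the mean and SD (lines and bars). The day 12 points of C3, C4b, C1ra, C1s, C2, Serping1 and Cd55 lie below all day 0 and day 1 points, those of Cfb lie closer, and those of Cfp overlap with both groups.

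C3, the protein on which all routes converge, had the highest level. It stood at 18150, 18550, 19140, 17870 and 16840 CPM in the day 0 libraries, 15340, 15120, 15310, 15140 and 14990 at day 1, and 4764, 4954, 4852, 4848 and 4643 at day 12. The 3 groups did not overlap, and each lay below the one before it. The log2 fold change was -0.25 (SE 0.0293, adjusted p = 3.6e-08) at day 1, short of the 1.5-fold limit, and -1.91 (SE 0.0303, adjusted p = 2.43e-24) at day 12, which left 26.6% of the day 0 level. Ranked by read count, C3 was number 3 or 4 of all genes in each day 0 library, number 4 in each day 1 library and number 13 in each day 12 library.

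C4b, which encodes C4, the partner of C2 in the classical and lectin enzyme, followed the same order of groups. Its levels were 5153, 4960, 5551, 5187 and 4870 CPM at day 0, 4743, 4458, 4438, 4489 and 4405 at day 1 and 1679, 1690, 1605, 1619 and 1610 at day 12. No library of a later group reached the range of an earlier one. C4b changed by -0.19 (SE 0.0318, adjusted p = 9.66e-06) on the log2 scale at day 1, below the limit for a call, and by -1.65 (SE 0.0326, adjusted p = 1.11e-22) at day 12. C4a, its relative with little activity in the complement cascade, was at 3.16, 2.84 and 1.18 CPM and was called lower at day 12 (-1.42, adjusted p = 4.1e-11).

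C1ra and C1s encode the proteases C1r and C1s that, with C1q, make up the first component of the classical route. C1ra was measured at 529, 543, 528, 548 and 515 CPM at day 0, 533, 506, 504, 481 and 514 at day 1 and 304, 330, 321, 316 and 302 at day 12. The day 0 and day 1 libraries overlapped, and all day 12 libraries were lower. The log2 fold change of C1ra was -0.07 (SE 0.0299, adjusted p = 0.0431) at day 1 and -0.76 (SE 0.0301, adjusted p = 5.85e-17) at day 12, the smallest change among the 7 members called lower at day 12 against both earlier groups. With total counts as the scale it was -0.57 at day 12, inside the 1.5-fold limit.

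C1s, which C1r activates and which then cleaves C4 and C2, was at 826, 889, 859, 819 and 813 CPM at day 0, 710, 687, 678, 657 and 699 at day 1 and 309, 316, 296, 293 and 302 at day 12. All day 1 libraries were below all day 0 libraries, and all day 12 libraries below both. The log2 fold change was -0.29 (SE 0.0299, adjusted p = 4.49e-09) at day 1, not called for its size, and -1.47 (SE 0.0305, adjusted p = 2.75e-22) at day 12. C1q, the recognition subunit, was not analysed here. The relatives C1rb and C1s2 moved the other way at very low levels: C1rb was at 0.671, 0.766 and 1.59 CPM (1.25 on the log2 scale at day 12, adjusted p = 1.37e-06) and C1s2 at 0.24, 0.419 and 1.6 CPM (2.73 at day 12, adjusted p = 1.79e-11).

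C2 and Cfb encode the related proteases of the classical and the alternative C3-cleaving enzyme, and the genes are direct neighbours. C2 stood at 70.7, 71.6, 73.3, 76.8 and 66.2 CPM at day 0, 78.9, 76.3, 72.5, 77.6 and 76.8 at day 1 and 34.3, 30.9, 33.1, 32.3 and 34.6 at day 12. Day 0 and day 1 overlapped and the day 12 libraries lay well below both. C2 was not called at day 1 (0.09, SE 0.0371, adjusted p = 0.0305), where its sign turned with scaling to reference genes (-0.0062), and was called lower at day 12 (-1.12, SE 0.0383, adjusted p = 3.55e-18), with 46.1% of the day 0 level left.

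Cfb was the member with the smallest change at day 12. Its levels were 2557, 2447, 2522, 2653 and 2426 CPM at day 0, 2701, 2617, 2662, 2729 and 2748 at day 1 and 2129, 2031, 2152, 2143 and 2143 at day 12. Day 0 and day 1 overlapped, and the day 12 libraries lay below all others by a small margin. At day 1 the log2 fold change was 0.09 (SE 0.0274, adjusted p = 0.00367), which was -0.0036 when the libraries were scaled to reference genes. At day 12 it was -0.25 (SE 0.0274, adjusted p = 1.22e-08), with 84.1% of the day 0 level left, so a difference larger than the spread between libraries but within 1.5-fold.

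Cfp encodes properdin, which stabilises the enzyme made by C3 and factor B and is made mostly by leukocytes. It was barely present, with 29 to 150 reads per library. Its level was 1.19, 1.08, 1.18, 1.07 and 0.731 CPM at day 0, 0.615, 0.555, 0.315, 0.53 and 0.441 at day 1 and 0.521, 0.479, 0.704, 0.855 and 0.817 at day 12. All day 1 libraries were below all day 0 libraries, while the day 12 libraries overlapped with both. Cfp was called lower at day 1 (-1.11, SE 0.222, adjusted p = 9.84e-05) and at day 12 (-0.64, SE 0.214, adjusted p = 0.00911). The day 12 call did not hold without day 12 replicate 1 (-0.56) or day 12 replicate 2 (-0.54), for the size of the change, or with scaling to total counts (-0.45, adjusted p = 0.0582). Between day 1 and day 12 Cfp was not called (0.47, adjusted p = 0.0775).

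Serping1 encodes the C1 inhibitor, a serpin that inactivates C1r, C1s and the lectin route proteases. It was at 872, 871, 818, 817 and 881 CPM at day 0, 713, 704, 653, 688 and 717 at day 1 and 220, 231, 232, 230 and 219 at day 12. The 3 groups were separate and each lay below the one before. The log2 fold change was -0.29 (SE 0.0306, adjusted p = 7.04e-09) at day 1 and -1.91 (SE 0.0318, adjusted p = 4.79e-24) at day 12, the same to 2 decimals as that of C3.

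Cd55 encodes decay-accelerating factor, which sits on the cell surface and breaks up the C3-cleaving enzymes. Its levels were 32.9, 31.9, 31.8, 34.5 and 32.4 CPM at day 0, 18.6, 16.4, 19.5, 16.9 and 18.7 at day 1 and 8.91, 7.32, 8.49, 8.7 and 7.29 at day 12. The 3 groups did not overlap, and each day 1 library was already below every day 0 library. Cd55 was called lower at day 1 (-0.86, SE 0.0544, adjusted p = 8.87e-13) and at day 12 (-2.01, SE 0.0581, adjusted p = 1.42e-19), which left 24.9% of the day 0 level, the least of any member. From day 1 to day 12 it fell by a further 1.15 on the log2 scale (adjusted p = 1.97e-14).

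Over the whole list, 6 members had all day 1 libraries below all day 0 libraries, which 28.8% of all tested genes also did. At day 12 it was 8 members against day 0, beside 31.7% of all tested genes, and 8 against day 1, beside 25.9%. The change from day 1 to day 12 was called for C3 (-1.66), Serping1 (-1.62), C4b (-1.46), C2 (-1.21), C1s (-1.18), Cd55 (-1.15) and C1ra (-0.69), all with adjusted p at or below 1.97e-14. Cfb changed by -0.34 in that interval (adjusted p = 7.35e-11) and was not called.

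**Figure D2:**
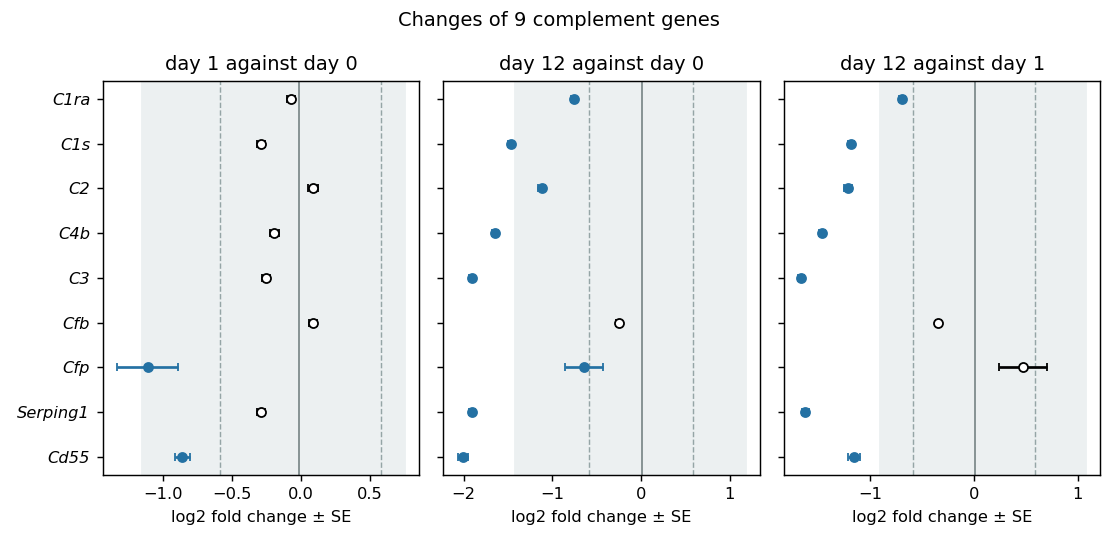
Log2 fold change with SE (horizontal axes) of the 9 complement genes in the 3 comparisons, with filled points for called genes. The grey band spans the 5th to 95th percentile of all tested genes with its median as a line, and dashed lines mark a 1.5-fold change. At day 12 C3, C4b, C1s, Serping1 and Cd55 lie left of the band, which begins at -1.42, and Cfb lies inside the dashed lines.

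To compare levels between genes, CPM were divided by the length of merged exons in kilobases. At day 0 the order was C3 (3530 CPM per kilobase), C4b (956), Cfb (916), Serping1 (424), C1s (282), C1ra (179), C2 (25.8), Cd55 (12.9) and Cfp (0.641). The library ranges of C4b and Cfb overlapped there, and no other neighbours did. At day 1 Cfb (978) stood above C4b (838), with no overlap. At day 12 C3 was at 937 and Cfb at 771, so the transcripts of the 2 partners of the alternative enzyme stood nearer to each other than at day 0, while C4b was at 305. Serping1 (112), C1ra (106) and C1s (102) formed a group in which neighbours overlapped at day 12, and with exon lengths of all annotated transcripts C1ra came before Serping1 (106 and 97.3). C2 (11.9), Cd55 (3.21) and Cfp (0.413) kept the last 3 places.

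Ratios of 2 members within a library need no scaling between libraries, and 5 pairs with related roles were chosen after their values had been seen. Their values are therefore a description, with no test. The library values of C3 to Cfb were 7.1, 7.58, 7.59, 6.73 and 6.94 at day 0, 5.68, 5.78, 5.75, 5.55 and 5.46 at day 1, and 2.24, 2.44, 2.25, 2.26 and 2.17 at day 12. These groups did not overlap in any comparison. C2 to Cfb was 0.0284 ± 0.000907 (SD, n = 5) at day 0, 0.0284 ± 0.000825 at day 1 and 0.0156 ± 0.000506 at day 12. For these neighbouring genes the day 0 and day 1 libraries overlapped over nearly their whole range, and the day 12 libraries lay below both.

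C3 to C4b was 3.52 ± 0.125 (SD, n = 5) at day 0, 3.37 ± 0.0812 at day 1 and 2.93 ± 0.0764 at day 12, with overlap between day 0 and day 1. C1s to C1ra, the 2 proteases of the same complex, was 1.58 ± 0.0573 at day 0, 1.35 ± 0.0136 at day 1 and 0.965 ± 0.0426 at day 12, and its 3 groups did not overlap. The inhibitor and its target, Serping1 to C1s, stood at 1.01 ± 0.0541 at day 0, 1.01 ± 0.0322 at day 1 and 0.746 ± 0.0346 at day 12. Its day 0 and day 1 libraries overlapped and those of day 12 lay below both.

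**Figure D3:**
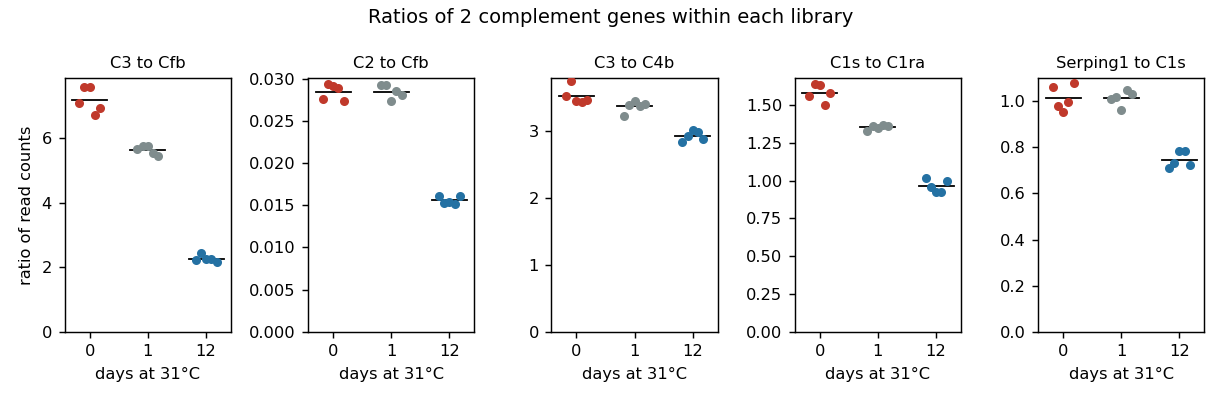
Ratio of read counts of 2 complement genes within each library (points; vertical axes, linear from 0) by days at 31°C, with group means as lines. C3 to Cfb fell from a mean of 7.19 to 2.27 between day 0 and day 12, while C2 to Cfb and Serping1 to C1s had the same means at day 0 and day 1.

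The other genes of the complement system were taken from 6 lists with 52 names, of which 46 were matched to the table and 28 were tested. At day 1, 2 of the 28 were called higher and 6 lower. At day 12, 10 were called higher and 9 lower against day 0, with a median log2 fold change of 0.1. Of all tested genes, 7.71% were called higher and 13.4% lower at day 1, and 13% and 16.2% at day 12. Of 11 genes that averaged 10 CPM or more, 4 were called lower and 1 higher at day 12. Of 12 genes under 1 CPM, 8 were called higher and 1 lower. A gene this low may pass the filter only through a group in which it is high, so these counts say little on direction. The same limit applies to the single calls of such genes, among them C9, Fcna and Cfi.

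Cfd, the only gene of the alternative route list, encodes factor D, which cleaves factor B. It was at 1220 ± 62.3 CPM (SD, n = 5) at day 0, 1270 ± 73.4 at day 1 and 582 ± 30.3 at day 12. It was not called at day 1 (0.05, adjusted p = 0.232, and -0.04 with reference genes) and was called lower at day 12 (-1.07, adjusted p = 3.61e-17). In the classical and lectin list, 9 genes were tested, and at day 12 4 were called higher and 2 lower. C1rl, a protease related to C1r, fell from 39.4 to 19.7 CPM at day 1 (adjusted p = 1.57e-16) and stood at 26.9 CPM at day 12. Masp2, the lectin route protease that cleaves C4, fell at day 1 (-2.14, adjusted p = 1.22e-05) and day 12 (-2.72, adjusted p = 6.78e-07) from 0.877 CPM, and 56.3% of its exon bases lie opposite Tardbp. Masp1, another protease of this route, was at 87.1, 78.8 and 87.8 CPM, and Colec12, a membrane collectin, at 291, 251 and 320 CPM, neither called. Fcna, a ficolin, was called higher at day 12 at 0.321 CPM (1.83, adjusted p = 0.00063), and Colec11, a collectin, at 0.169 CPM (1.19, adjusted p = 0.0381).

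Of the terminal pathway, whose products form the pore in the target membrane, 3 of 7 genes were tested. C6 was at 10.6, 7.38 and 13.3 CPM and was called higher between day 1 and day 12 (0.86, adjusted p = 1.02e-10). C8g, the lipocalin subunit of C8, was called lower at day 1 (-0.87, adjusted p = 9.53e-07) and day 12 (-0.84, adjusted p = 1.3e-06). C9, the pore subunit, had 0 to 4 reads per library at day 0 and 9 to 16 at day 12, and was called higher there (adjusted p = 4.73e-05). It reached at most 0.0431 CPM at day 0 and 0.0256 at day 1, so it may have passed the filter only through day 12. Hc, which encodes C5, together with C7, C8a and C8b, was below the test filter, with at most 15 reads in any library.

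Of 6 soluble regulators tested, 3 were called lower and 1 higher at day 12. Clu, or clusterin, which blocks pore insertion, was at 2460 ± 52.9 CPM (SD, n = 5) at day 0, 2130 ± 47.9 at day 1 and 704 ± 9.62 at day 12 (-1.80, adjusted p = 3.71e-25). Pros1, or protein S, a partner of C4-binding protein, went from 241 to 172 and 146 CPM (-0.72 at day 12, adjusted p = 1.73e-16), a call that was lost with scaling to total counts (-0.53). Cfi, the protease that degrades C3b, was called higher at day 12 from 0.0921 to 0.314 CPM (1.69, adjusted p = 0.00234), and C4bp was called lower at day 1 (-0.75, adjusted p = 0.0376) from 0.615 CPM. The C4bp call was lost when any 1 of 6 libraries was left out (day 0 replicates 1, 2 and 5 and day 1 replicates 1, 4 and 5), with adjusted p from 0.0642 to 0.122. That of Colec11 was likewise lost when any 1 of 6 was left out (day 0 replicates 1, 3 and 4 and day 12 replicates 1, 3 and 5), with adjusted p from 0.0522 to 0.121.

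Of the membrane regulators 5 were tested. Cd59b, an inhibitor of the pore, was called lower at day 1 (-0.71, adjusted p = 1.04e-06) and day 12 (-2.38, adjusted p = 2.36e-15) from 4.15 CPM, whereas its more abundant relative Cd59a was at 41.4, 40.2 and 43.5 CPM. Csmd1, a large membrane inhibitor of the classical route, was called lower at both times (-0.79, adjusted p = 2.73e-08, and -1.82, adjusted p = 1.38e-14) from 7.24 CPM. Cr1l, also called Crry, the broad inhibitor of rodent cells, was at 48.3, 54.2 and 45.9 CPM and was not called in any comparison. Cd46 was at 0.523, 0.546 and 0.573 CPM. The receptor list had 4 tested genes, all called higher at day 12: C1qbp (0.75, adjusted p = 3.95e-16), a mitochondrial protein that can also bind C1q, from 39.3 to 66.1 CPM, and 3 at under 1 CPM, the C5a receptor C5ar2 (1.63, adjusted p = 1.05e-05), the integrin chain Itgb2 (1.52, adjusted p = 0.000299) and Cd93 (1.54, adjusted p = 4.45e-06). The leukocyte receptors C3ar1, C5ar1, Itgam, Itgax and Vsig4 were below the test filter.

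A list of 26 genes of the interferon, interleukin-6, NF-kB and C/EBP routes, which are known to drive transcription of C3, C4, factor B, C2 and C1 inhibitor in other cells, was read in the same libraries. Of 25 tested, 5 were called lower at day 1, beside 13.4% of all tested genes, and 7 at day 12, beside 16.2%. None was called higher, though Stat3 was at day 12 with scaling to total counts (0.70). The median log2 fold changes were -0.32 and -0.43. Irf1, an interferon-induced factor, fell from 59.6 to 28.7 and 27.9 CPM (-1.05, adjusted p = 1.04e-15, and -1.10, adjusted p = 2.21e-16). Stat2 (-0.90 and -0.92) and Irf9 (-0.83 and -0.81), which act together in the type I interferon response, were called lower at both times.

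At day 1 these 3 genes had log2 fold changes of -1.05 to -0.83. The members other than Cfp (-1.11) and Cd55 (-0.86) had -0.29 to 0.09. Over the whole lists the day 1 medians lay close, at -0.32 for the 25 tested inducer genes and -0.25 for the 9 members. Some inducer genes were above 0 at day 1, such as Stat3 (0.47), Il1r1 (0.42) and Tnfrsf1a (0.37). The difference between the lists, and any order in time between them, was not tested. Irf7, another interferon factor, was called at day 12 and not at day 1, from 205 to 45.7 CPM (-2.16, adjusted p = 1.05e-15), and its change from day 1 to day 12 was itself called (-1.90, adjusted p = 2.65e-14). The interferon-gamma receptor chain Ifngr1 (-0.65, adjusted p = 8.3e-17) and the feedback inhibitor Socs3 (-0.61, adjusted p = 2.39e-13) were called lower at day 12, and both were within 1.5-fold under scaling to total counts (-0.46 and -0.41). The Socs3 call was also lost with reference genes (-0.55), within the larger library number series (-0.57) and without day 0 replicate 5 (-0.58). Nfkb2 was called lower at day 1 (-0.66, adjusted p = 4.3e-16). The other listed genes at 10 CPM or more (Ifngr2, Jak1, Jak2, Stat3, Il6ra, Il6st, Nfkb1, Rela, Relb, Nfkbia, Nfkbiz, Cebpb, Cebpd, Il1r1 and Tnfrsf1a) were not called in either comparison with day 0, with day 12 values from -0.54 (Il6ra) to 0.51 (Stat3).

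Markers of other cells moved as follows over the same groups, and their part in the fall of the complement genes was not tested. Fibroblast and progenitor markers, 6 of 8 tested, summed to 12000 to 12300 CPM at day 0, 10600 to 10900 at day 1 and 9020 to 9470 at day 12, with 1 of the 6, Lum, called lower at day 12 (-1.13, adjusted p = 1.92e-19). Of the 8 adipocyte markers, 2 were called higher (Fabp4 and Retn) and 3 lower (Adipoq, Cidec and Pparg) at day 12. The shares over all tested genes were 13% higher and 16.2% lower. Mesothelial markers, 5 of 6 in the table, summed to 2.06 to 2.25, 1.79 to 2.15 and 23.4 to 38.3 CPM, which was mostly Msln at day 12, with Wt1 and Upk3b near 0. Endothelial markers summed to 0.524 to 0.689, 0.282 to 0.903 and 0.921 to 1.47 CPM, with Cdh5 near 0. Of the 8 macrophage markers 6 were tested, 2 were called higher and none lower at day 12, and 6 were under 1 CPM at day 0.

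The gene whose log2 CPM followed each member most closely over the 15 libraries, among 12124 genes that averaged 1 CPM or more, was the same for C3 (Pearson r = 0.9993), Serping1 (0.9981) and C1ra (0.994), namely Gpx3. It was Clu for C4b (0.9989), Rcn3 for C1s (0.9971), Cyp4v3 for C2 (0.995), Pygl for Cd55 (0.9926), H2-T10 for Cfb (0.9776) and Aldoc for Cfp (0.9095). The libraries form 3 groups and share their scaling, so these values describe mainly the order of the group means.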

How the data were processed

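RNA from cultured adipocytes of C57BL/6J MSCs was sequenced in 15 libraries, 5 each after 0, 1 and 12 days at 31°C, and groups were taken from the sample labels. The authors aligned reads with TopHat2 2.0.13 and Bowtie2 2.2.1 to mm10, and HTSeq was used to make the deposited count of reads for each gene, the raw counts used here. Strandedness and the treatment of reads that match several genes are not given in the sources used here. The authors also deposited regularized log2 values and DESeq2 comparison tables with fold changes and p-values, which were not used.

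Genes were filtered with filterByExpr (minimum count 10), libraries were scaled by TMM, and all 15 were fitted together without covariates by the quasi-likelihood test of edgeR 4.0.16 (R 4.3.3). Calls needed a Benjamini-Hochberg adjusted p under 0.05 over all 14293 genes and a fold change over 1.5. SE of log2 fold changes came from the same fit. Depth was 64648178 to 133270973 counts per library, and counting error was small for all members except Cfp. In simulated counts for day 12 against day 0, on 14040 genes, the test called 47 of 49 tested genes changed 1.7-fold and all 49 changed 5-fold, and 3 unchanged genes. Replicates of a group differed by more than sampling noise (chi-square per degree of freedom of 5.69 to 24.5 over 30 pairs), so none was counted as a duplicate. Exon lengths and overlaps came from GENCODE M21. Scaling (DESeq2 1.42.0 size factors, total counts, the reference genes Hprt, Tbp and Ppia), filters, the test, covariates and single libraries were varied over 26 alternatives.

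The members and gene lists were chosen with earlier results of these data known. Named genes are all members, plus listed complement and inducer genes called in any comparison or with a mean of at least 10 CPM. C1s2, C5ar2 and Cd55b were matched through older symbols. C1qa, C1qb, C1qc, Mbl1, Fcnb and Cfhr3 were not analysed here. Some genes of these lists enter the counts but are not reported here by name.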

Additional observations from a re-analysis of the deposited data

Results flagged for a closer look

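In 3 of the 27 groups of 5 libraries, 1 library lay far from the other 4 by Dixon's test, where chance flags about 1 in 20 groups. C4b in day 1 replicate 1 was at 4740 CPM, with the others at 4400 to 4490. Cfb in day 12 replicate 2 was at 2030 CPM, with the others at 2130 to 2150. Cfp in day 0 replicate 5 was at 0.731 CPM, with the others at 1.07 to 1.19. Without that library Cfp was still called lower at day 1 and day 12.

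For 7 members the effect at day 12 differed from that at day 1 by the test of day 12 against day 1 itself. The log2 differences were -0.69 for C1ra, -1.18 for C1s, -1.21 for C2, -1.66 for C3, -1.46 for C4b, -1.62 for Serping1 and -1.15 for Cd55.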

How the results depend on the processing

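Over 26 alternatives, 680 of 699 recomputed log2 fold changes of the 9 members kept their direction and side of the threshold. With reference genes as the scale, C2 (-0.0062), Cfb (-0.0036) and Cfd (-0.0431) turned sign at day 1. With scaling to total counts C1ra was below 1.5-fold at day 12 (-0.57) and against day 1 (-0.52), as it was against day 1 with reference genes (-0.54), and Cfp was called higher from day 1 to day 12 with either scale (0.64 and 0.61). These scales moved the median of all genes, by 0.205 at day 12 and 0.182 between day 1 and day 12 with total counts, and by -0.107 at day 1 and 0.163 between day 1 and day 12 with reference genes. The share of called genes that were lower was then 35.9% and 27.3%, and 75.8% and 29%, against 55.6%, 44.7%, 63.5% and 44.7% with TMM. With only genes at a mean of 10 CPM or more, 1 member was called at day 1, since Cfp was not tested, and of the other complement genes 2, 5 and 4 were called in the comparisons of day 1 with day 0, day 12 with day 0 and day 12 with day 1, instead of 8, 19 and 16, since 11 were tested. Without the fold limit, 9 members (2 higher, 7 lower) and 15 other complement genes were called at day 1. Leaving out single libraries gave 2 members called at day 1, 7 to 8 at day 12 and 7 between day 1 and day 12. For C2 to Cfb and Serping1 to C1s at day 1, whose log2 differences were near 0, leaving out single libraries gave -0.017 to 0.013 and -0.022 to 0.024.

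The labels number the libraries 1 to 5 in each group, but deviations of same-numbered libraries did not go together (15 correlations from -0.026 to 0.044), so the samples share only a number. With the replicate block 2, 8 and 7 members were called, the same counts as without it. Within the larger of the library number series, 11 libraries, the counts were also 2, 8 and 7. Depth limits Cfp, C9, Fcna, Colec11, Cfi and C4bp, whose levels rest on few reads.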
